A study of Mus musculus with 6 samples.

Results

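The G1 phase of the cell cycle was followed in resting bone-marrow-derived macrophages (BMDMs) through 10 genes. They are the D cyclins *Ccnd1*, *Ccnd2* and *Ccnd3*, their kinases *Cdk4* and *Cdk6*, the kinase inhibitors *Cdkn1a*, *Cdkn1b* and *Cdkn2c*, the Polycomb gene *Bmi1* and the transcription factor gene *Myc*. They were picked by name from the 22248 genes listed, and 1 row was found for each. CITED2-deficient BMDMs came from *Cited2* fl/fl:*Lyz2* cre mice, homozygous for floxed *Cited2* and heterozygous for Cre at *Lyz2*, and control BMDMs came from *Lyz2* cre mice, which share the heterozygous Cre but have no floxed gene. All mice were of the C57BL/6 strain, the labels give an age of 10 postnatal weeks, and no stimulus was given to the cells. Each genotype has 3 libraries. Cre is made from the *Lyz2* locus, which is active in myeloid cells, so cells of other lineages in a culture keep *Cited2*. Marrow cells became BMDMs in culture with M-CSF (macrophage colony-stimulating factor), the cytokine on which macrophages depend for survival and division.

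M-CSF and other mitogens act on the cell cycle largely through the D cyclins, which activate CDK4 and CDK6. These kinases phosphorylate the retinoblastoma protein RB and thereby free E2F factors to start DNA replication. INK4 inhibitors such as p18 (*Cdkn2c*) bind CDK4 and CDK6 directly, whereas the CIP/KIP inhibitors p21 (*Cdkn1a*) and p27 (*Cdkn1b*) bind cyclin-CDK complexes and block CDK2 above all. BMI1 is a subunit of Polycomb repressive complex 1 (PRC1) and is known for silencing the *Cdkn2a* locus, and MYC drives growth genes together with its partner MAX. CITED2 is a nuclear coregulator that binds CBP/p300. In embryonic fibroblasts its loss is known to slow proliferation, with lower *Bmi1* and higher *Cdkn2a*.

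In CITED2-deficient BMDMs, *Ccnd2* was 3.90 times its control FPKM and *Cdkn1a*, *Cdk6*, *Ccnd1* and *Bmi1* were also higher, while *Cdkn2c*, *Cdkn1b*, *Ccnd3* and *Cdk4* were lower. *Myc* did not pass the threshold. FPKM are fragments per kilobase of transcript, scaled to library size. All 10 genes had a mean of at least 1 FPKM and were tested with limma on log2(FPKM + 1), the scale of every log2 fold change given here, at a Benjamini-Hochberg adjusted p of 0.05 over 11687 genes. Of the 10 genes, 5 rose, 4 fell and 1 did not pass, so 9 were called, against 51.3% of all tested genes (16.7% higher and 34.6% lower). The 2 groups of libraries did not overlap for the same 9 genes, against 59.9% of all tested genes (19.0% higher and 40.9% lower). A call as such is therefore common in this comparison, and the sizes of the changes carry more information. The median absolute log2 fold change was 0.48 over the 10 genes and 0.20 over all tested genes. The 10 genes were chosen with earlier results of these data known, so neither the count nor this median tests them as a set. *Ccnd2* and *Cdkn1a* were the members called with a fold of at least 2, which 5.26% of tested genes were. The median of all tested genes lay at -0.10 with the deposited scaling and at -0.0068 when libraries were scaled by median ratios, so a small fall is partly shared with the bulk of genes.

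**Figure D1:**
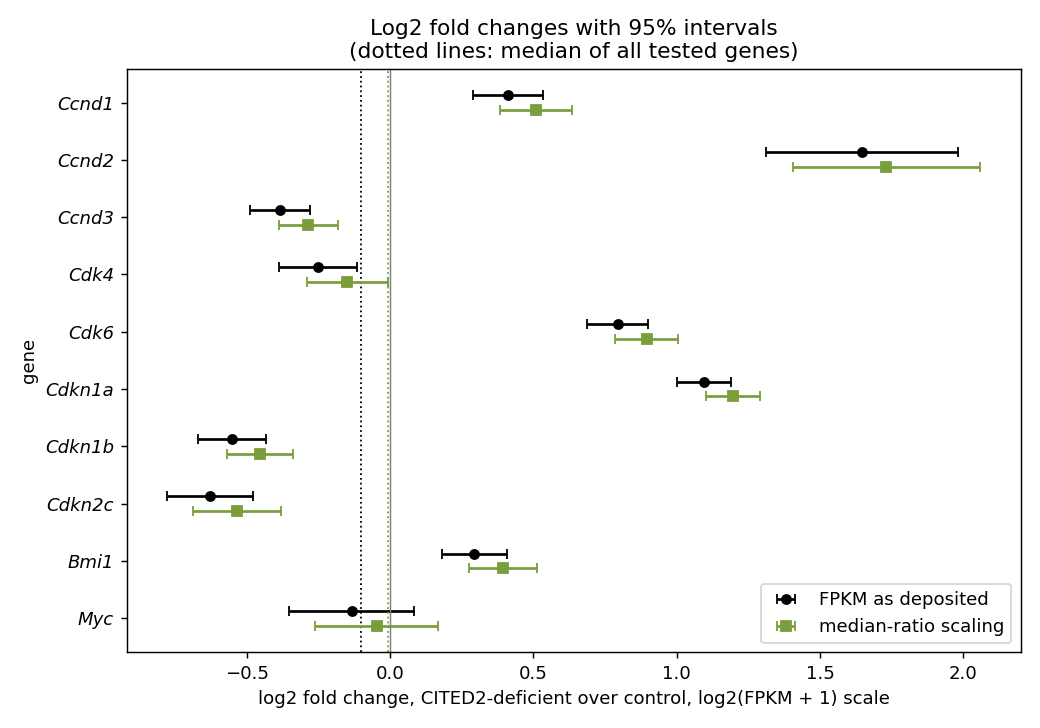
Log2 fold change on log2(FPKM + 1), CITED2-deficient minus control, for the 10 genes with 95% confidence intervals from limma, as deposited (black circles) and with median-ratio scaling (green squares); dotted lines mark the medians of all tested genes, -0.10 and -0.0068. As deposited, *Ccnd2* lies at 1.65 and *Cdkn1a* at 1.10 and the interval of *Myc*, -0.35 to 0.086, spans 0, and median-ratio scaling moves each gene to the right without changing a direction.

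*Cited2* itself was measured first as a check of the genotypes. Control replicates 1, 2 and 3 had 71.7, 79.3 and 75.5 FPKM, CITED2-deficient replicates 1, 2 and 3 had 9.27, 7.22 and 7.53 FPKM, and so every library matched its label. The recovered depth was 17289286 to 18952077 fragments in control libraries and 22583995 to 26100410 in CITED2-deficient libraries, 1.34 times more on average. The macrophage label was checked with 11 markers, all of them tested, whose summed FPKM was 10457 to 10588 in control and 12476 to 12651 in CITED2-deficient libraries, with 2 higher and 6 lower. The higher sum rested on *Ctss*, whose mean FPKM went from 3016 to 5662, while *Adgre1* (2214 to 1776), *Lgmn* (1644 to 1397) and *Csf1r* (1135 to 916) fell. *Lyz2*, the locus that carries Cre in both groups, was lower, with mean FPKM of 31.3 in control and 9.75 in CITED2-deficient libraries. Fibroblast or stromal markers rose in all 10 of their tested genes, and their summed FPKM was 47.3 to 57.3 in control libraries but 577, 190 and 191 in CITED2-deficient replicates 1 to 3, which sets replicate 1 apart. *Postn*, *Fbn1* and *Pdgfrb*, with control means of 0.394, 0.871 and 0.936 FPKM, reached the mean of 1 FPKM only through the CITED2-deficient libraries. Their calls are therefore partly built in, and *Lum* and *Thy1* lay below that limit and were not tested. The sum of endothelial markers rose from 12.3 to 14.2 up to 38.5 to 43.0 (3 of 4 tested higher), and granulocyte precursor markers were mostly lower (7 of 10, with 1 higher), at 747 to 815 and 664 to 782. Most of the endothelial rise was that of *Kdr* (mean FPKM 4.26 in control and 27.5 without CITED2), and *Pecam1* did not pass (limma adjusted p = 0.127). Few genes of the other lists were tested. Among dendritic, among B cell and among osteoclast markers 1 of 2 was higher, and the single T and NK cell marker was lower. Among erythroid and megakaryocyte markers 2 of 3 were higher and 1, *Pf4*, was lower. The sum of that list was 315 to 344 in control but 78.7 to 89.9 in CITED2-deficient libraries, mostly through *Pf4* (mean FPKM 320 and 75.4). The B cell marker *Ebf1* and the endothelial marker *Cdh5*, with control means of 0.503 and 0.720 FPKM, also entered the test only through the CITED2-deficient libraries. No marker list had a gene at 0 in every library. The RNA is from whole cultures, so fewer cells of a type and less RNA per cell cannot be told apart.

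**Figure D2:**
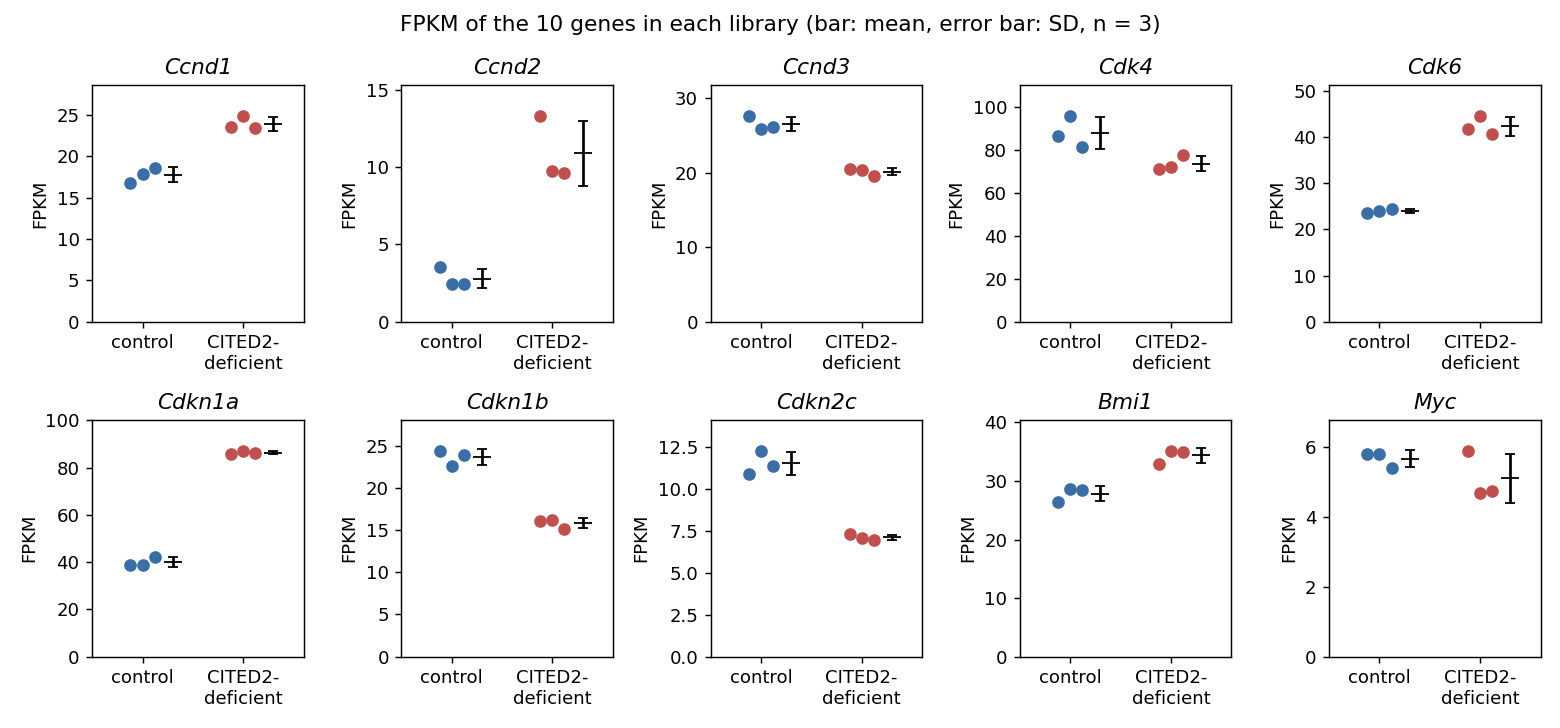
FPKM of each of the 10 genes in the 3 control (blue) and 3 CITED2-deficient (red) libraries, with the mean (bar) and SD (error bar, n = 3) beside them; each panel has its own axis from 0. The groups are separate for 9 genes, and *Myc* overlaps because CITED2-deficient replicate 1, at 5.90, lies above every control library.

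The stretches of DNA before the start sites are shown for the 3 genes in which a canonical E-box was found. CACGTG, which reads the same on both strands, is the letter sequence that MYC-MAX dimers and their relatives prefer, and it is in capitals. Of the 10 genes, 7 had a promoter window in the RefSeq table of GRCm38.p6 (10 windows), and 250 bases before each start were searched.

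Cdk4, chr10:127063285-127063533, plus strand: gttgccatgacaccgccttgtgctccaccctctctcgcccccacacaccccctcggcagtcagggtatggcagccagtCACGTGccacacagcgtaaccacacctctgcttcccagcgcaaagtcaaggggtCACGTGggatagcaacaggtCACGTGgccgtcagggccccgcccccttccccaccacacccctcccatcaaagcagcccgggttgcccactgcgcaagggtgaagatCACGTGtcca
Cdk6, chr5:3343643-3343731, plus strand: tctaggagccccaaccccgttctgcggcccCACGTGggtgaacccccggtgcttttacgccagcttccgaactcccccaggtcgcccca
Bmi1, chr2:18676768-18677017, plus strand: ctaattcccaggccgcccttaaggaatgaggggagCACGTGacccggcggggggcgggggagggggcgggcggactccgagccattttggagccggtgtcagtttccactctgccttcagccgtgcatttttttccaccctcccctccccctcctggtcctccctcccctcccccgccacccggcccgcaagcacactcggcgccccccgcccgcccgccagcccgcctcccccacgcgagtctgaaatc

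The runs end at the RefSeq start or, if earlier, where an exon of GENCODE vM21 begins, so 89 bases are shown for *Cdk6*, 249 for *Cdk4* and 250 for *Bmi1*. In *Cdk4* 4 E-boxes began 172, 118, 98 and 11 bases before the RefSeq start, in *Cdk6* 1 began 220 bases before it and in *Bmi1* 1 began 215 bases before it. The windows of *Ccnd3*, *Cdkn1a*, *Cdkn1b* and *Cdkn2c* held no match to these letters. Among all 32851 windows of the same length, 1978 (6.02%) held at least 1 such E-box and 7 (0.0213%) held at least 4. The 3 genes did not move as a group, since *Cdk6* and *Bmi1* rose and *Cdk4* fell. A match is a string of letters and not a measured binding site.

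*Ccnd1* (ENSMUSG00000070348, chromosome 7, 144929931 to 144939925 in mm10, minus strand) encodes cyclin D1, the D cyclin most tied to growth factor signals. The level was 16.8, 17.9 and 18.6 FPKM with CITED2 (replicates 1, 2 and 3) and 23.5, 24.9 and 23.4 FPKM without it. All 3 CITED2-deficient values exceeded the 3 control values. On average, controls had 17.8 ± 0.925 (SD, n = 3) FPKM and CITED2-deficient BMDMs 23.9 ± 0.840 (SD, n = 3), with a log2 fold change of 0.41 (standard error 0.054, 95% confidence interval 0.29 to 0.54, limma adjusted p = 0.000231). *Oraov1* on the opposite strand shares 1100 of the 4709 exon bases of *Ccnd1*. It was at 13.8 to 17.1 FPKM and did not pass the threshold (-0.091, limma adjusted p = 0.341). The strand setting of the counting is not given, so reads of *Ccnd1* and *Oraov1* in the shared bases may not be separated.

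*Ccnd2* (ENSMUSG00000000184, chromosome 6, 127125162 to 127152193, minus strand) encodes cyclin D2, which hematopoietic cells use widely, and it is a known target of the repressor BCL6. Across replicates 1, 2 and 3 the controls read 3.52, 2.44 and 2.42 FPKM and the CITED2-deficient libraries 13.3, 9.76 and 9.59 FPKM. Both groups had 1 library above the other pair, replicate 1 in each case, yet the lowest CITED2-deficient library exceeded the highest control library. Averaged by group, the FPKM was 2.79 ± 0.632 (SD, n = 3) with CITED2 and 10.9 ± 2.10 (SD, n = 3) without it. The log2 fold change was 1.65 (standard error 0.15, 95% confidence interval 1.31 to 1.98, limma adjusted p = 2e-05), and it ranked 150 of the 11687 tested genes from the highest rise down. These values rest on few fragments in the controls, 109, 69 and 75, against 554, 361 and 410 in CITED2-deficient BMDMs. The lowest library, with 69 fragments, has an exact 95% Poisson interval of 53.7 to 87.3, which covers counting error only.

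The genes most like *Ccnd2* over the 6 libraries included a stromal marker. By the root mean square difference of log2(FPKM + 1) from the control mean, the closest was *Mmp14*, a membrane metalloproteinase (0.055), followed by *Cxcl12*, a chemokine of marrow stroma (0.085) that is also in the stromal marker list. *Cxcl12* had 3.58, 2.38 and 2.76 FPKM in controls and 12.7, 9.11 and 9.97 in CITED2-deficient libraries. *Col1a1*, the type I collagen gene with the largest rise of that list, had 15.5, 14.2 and 16.6 FPKM against 305, 62.0 and 62.6. The library with the highest stromal sum was thus also the highest for *Ccnd2*. That sum, 577 FPKM against 190 and 191, was set apart mostly by *Col1a1* and *Col1a2* (175, 66.3 and 63.6). *Dcn*, in contrast, had 6.83, 6.18 and 7.53 FPKM in CITED2-deficient replicates 1 to 3. Without CITED2-deficient replicate 1 the log2 fold change of *Ccnd2* was 1.51 (limma adjusted p = 4.49e-05). The part of stromal cells in the rise of *Ccnd2* was not tested.

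**Figure D3:**
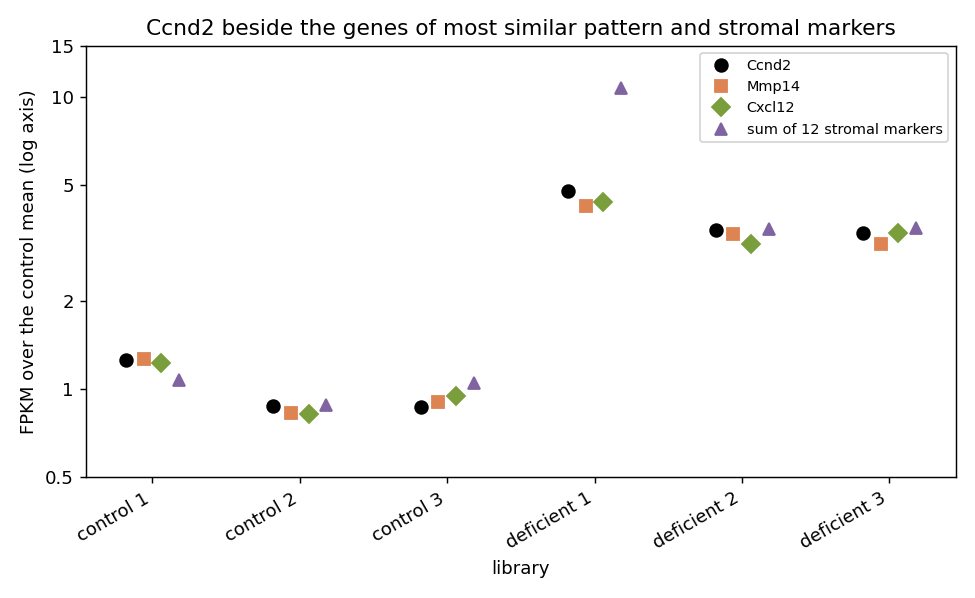
FPKM divided by the control mean on a log axis for *Ccnd2*, *Mmp14*, *Cxcl12* and the sum of 12 stromal markers in each of the 6 libraries. In CITED2-deficient replicates 2 and 3 the 4 series lie close together. In replicate 1 the stromal sum, at 577 FPKM, stands above the other series, with 305 from *Col1a1* and 175 from *Col1a2*.

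*Ccnd3* (ENSMUSG00000034165, chromosome 17, 47505051 to 47599691, plus strand), the third D cyclin gene and the one most used by maturing blood cells, went the other way. Control replicates 1, 2 and 3 had 27.6, 25.9 and 26.1 FPKM, and CITED2-deficient replicates 1, 2 and 3 had 20.5, 20.3 and 19.6 FPKM. The groups did not overlap. Mean FPKM was 26.6 ± 0.927 (SD, n = 3) in controls against 20.1 ± 0.451 (SD, n = 3) without CITED2, with a log2 fold change of -0.38 (standard error 0.047, 95% confidence interval -0.49 to -0.28, limma adjusted p = 0.000141). *Bysl* on the opposite strand, with 361 shared of 8775 exon bases, had at most 3.94 FPKM in any library.

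The balance among the D cyclins therefore shifted, and shares within a library do not depend on the scaling between libraries. Of the summed D cyclin FPKM, *Ccnd3* held 57.6, 56.0 and 55.4% in the controls and 35.7, 36.9 and 37.3% in the libraries without CITED2. *Ccnd2* held 7.35, 5.27 and 5.13% in controls and 23.2, 17.8 and 18.2% in CITED2-deficient BMDMs. *Ccnd1* held 37.7 ± 2.39% (SD, n = 3) in controls and 43.6 ± 2.28% (SD, n = 3) without CITED2. The leading D cyclin was *Ccnd3* in every control library and *Ccnd1* in every CITED2-deficient library on this scale. The order depends on the transcript length that fragments are divided by. With the longest annotated transcript in place of the mean length, *Ccnd1* led in both groups, with 51.7% and 58.8%, and the shares of *Ccnd3* were 44.4% and 28.3% and those of *Ccnd2* 3.95% and 12.9%. The summed D cyclin FPKM was 47.1 ± 0.824 (SD, n = 3) in control and 55.0 ± 2.35 (SD, n = 3) in CITED2-deficient BMDMs.

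**Figure D4:**
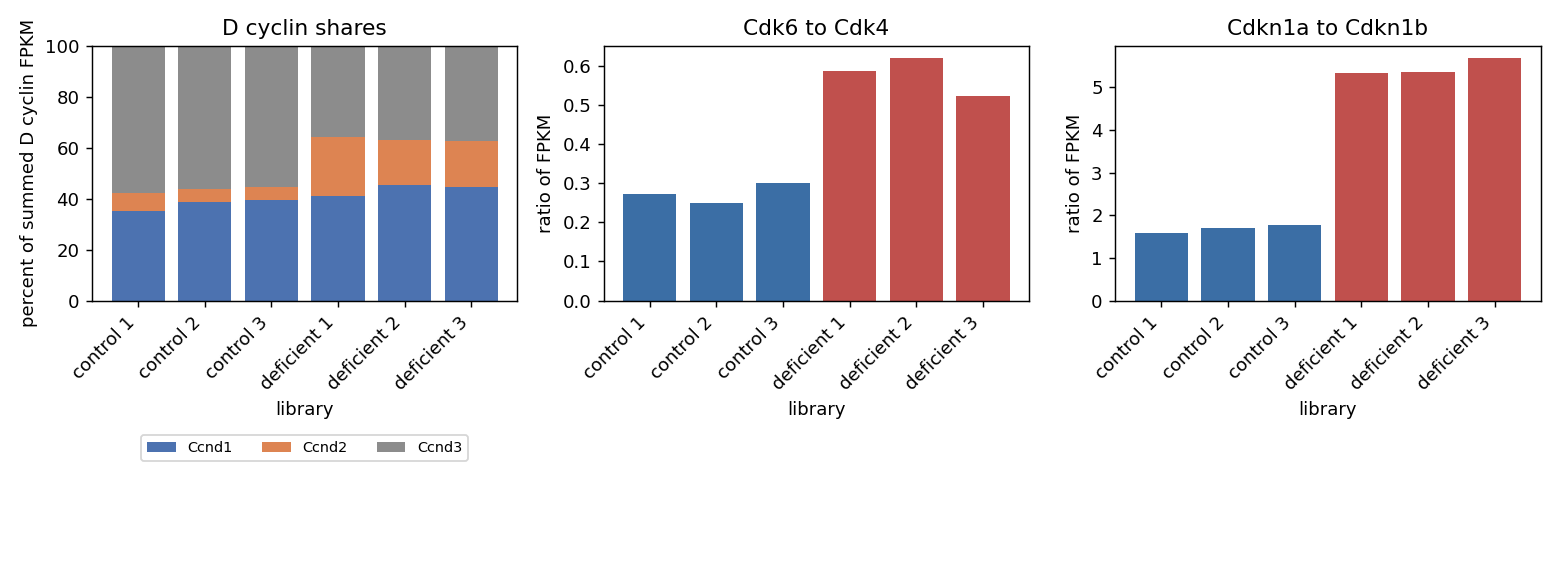
Left, the percent of summed *Ccnd1*, *Ccnd2* and *Ccnd3* FPKM held by each gene in each library; middle and right, the ratio of *Cdk6* to *Cdk4* FPKM and of *Cdkn1a* to *Cdkn1b* FPKM in each library. *Ccnd3* holds at least 55.4% of the D cyclin sum in controls and at most 37.3% without CITED2, and both ratios are higher in every CITED2-deficient library than in any control library.

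*Cdk6* (ENSMUSG00000040274, chromosome 5, 3341485 to 3531008, plus strand) encodes the D cyclin kinase that prevails in many blood cells. The level was 23.5, 23.9 and 24.5 FPKM with CITED2 (replicates 1, 2 and 3) and 41.8, 44.6 and 40.6 FPKM without it. The groups were widely apart beside their spread. On average, controls had 24.0 ± 0.495 (SD, n = 3) FPKM and CITED2-deficient BMDMs 42.3 ± 2.09 (SD, n = 3), with a log2 fold change of 0.79 (standard error 0.047, 95% confidence interval 0.69 to 0.90, limma adjusted p = 1.29e-06). The genes of most similar pattern were *Ogfr*, the opioid growth factor receptor (0.024), and *Zup1*, a deubiquitinase (0.030).

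*Cdk4* (ENSMUSG00000006728, chromosome 10, 127063534 to 127067920, plus strand) encodes the other D cyclin kinase and was modestly lower. Across replicates 1, 2 and 3 the controls read 86.2, 95.7 and 81.3 FPKM and the CITED2-deficient libraries 71.2, 71.8 and 77.4 FPKM. The lowest control library lay only slightly above the highest CITED2-deficient library. Averaged by group, the FPKM was 87.7 ± 7.35 (SD, n = 3) with CITED2 and 73.5 ± 3.41 (SD, n = 3) without it, with a log2 fold change of -0.25 (standard error 0.060, 95% confidence interval -0.39 to -0.11, limma adjusted p = 0.00717). With median-ratio scaling the log2 fold change was -0.15 and the call was lost (limma adjusted p = 0.0871). *Tspan31*, which shares 641 of the 3249 exon bases of *Cdk4* on the opposite strand, was well expressed at 72.7 to 82.7 FPKM and did not pass (0.088, limma adjusted p = 0.133). The sources used here do not give the strand setting of the counting, so reads of *Cdk4* and *Tspan31* in the shared bases may not be separated. The ratio of *Cdk6* to *Cdk4* was 0.272, 0.250 and 0.301 in control and 0.587, 0.621 and 0.524 in CITED2-deficient replicates 1 to 3, a rise of 2.10 times that no scale factor per library can change.

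*Cdkn1a* (ENSMUSG00000023067, chromosome 17, 29090976 to 29100727, plus strand) encodes p21, the CDK inhibitor that p53 induces. Control replicates 1, 2 and 3 had 38.7, 38.8 and 42.3 FPKM, and CITED2-deficient replicates 1, 2 and 3 had 85.7, 87.2 and 86.1 FPKM. The 3 CITED2-deficient libraries were nearly alike, and each was over 2 times any control library. Mean FPKM was 39.9 ± 2.05 (SD, n = 3) in controls against 86.4 ± 0.738 (SD, n = 3) without CITED2, with a log2 fold change of 1.10 (standard error 0.042, 95% confidence interval 1.00 to 1.19, limma adjusted p = 6.68e-08). *Itpr1*, a calcium release channel (0.043), and *Frmd4a* (0.045) had the most similar patterns.

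*Cdkn1b* (ENSMUSG00000003031, chromosome 6, 134920401 to 134925513, plus strand) encodes p27, the inhibitor that accumulates in quiescent cells. The level was 24.4, 22.6 and 23.9 FPKM with CITED2 (replicates 1, 2 and 3) and 16.1, 16.2 and 15.1 FPKM without it. The groups did not overlap. On average, controls had 23.7 ± 0.909 (SD, n = 3) FPKM and CITED2-deficient BMDMs 15.8 ± 0.601 (SD, n = 3), with a log2 fold change of -0.55 (standard error 0.052, 95% confidence interval -0.67 to -0.43, limma adjusted p = 2.86e-05). Closest in pattern were *Rassf2*, a RAS-association protein gene (0.009), and *Mtr*, methionine synthase (0.023). The CIP/KIP pair thus moved in opposite directions, and the ratio of *Cdkn1a* to *Cdkn1b* was 1.59, 1.71 and 1.77 in control and 5.34, 5.37 and 5.69 in CITED2-deficient replicates 1 to 3.

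*Cdkn2c* (ENSMUSG00000028551, chromosome 4, 109660876 to 109667189, minus strand) encodes the INK4 inhibitor p18. Across replicates 1, 2 and 3 the controls read 10.9, 12.3 and 11.4 FPKM and the CITED2-deficient libraries 7.31, 7.06 and 6.99 FPKM. Every CITED2-deficient library was below every control library. Averaged by group, the FPKM was 11.5 ± 0.664 (SD, n = 3) with CITED2 and 7.12 ± 0.169 (SD, n = 3) without it, with a log2 fold change of -0.63 (standard error 0.066, 95% confidence interval -0.78 to -0.48, limma adjusted p = 5.61e-05). *Pla2g15*, a lysosomal phospholipase (0.024), and *Galnt4*, a glycosyltransferase (0.025), followed it most closely.

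Among the 5 other CDK inhibitor genes the calls were falls, while the untested genes were low but read higher in every CITED2-deficient library. Of the 3 that were tested, *Cdkn1c*, which encodes p57, fell by 0.48 on the log2 scale (27.5 ± 0.873 to 19.4 ± 1.17 FPKM, limma adjusted p = 9.19e-05). *Cdkn2d*, which encodes p19INK4d, fell by 0.22 (limma adjusted p = 0.0405), a call that was lost with median-ratio scaling (-0.13, limma adjusted p = 0.226). The next 3 genes are named after their values were seen. *Cdkn2b*, which encodes p15, had a log2 fold change of -0.32 and did not pass (limma adjusted p = 0.194). *Cdkn2a*, the Polycomb target that encodes p16 and ARF, lay below the mean of 1 FPKM and was not tested, with 0.364, 0.398 and 0.604 FPKM in control and 1.49, 0.609 and 1.05 in CITED2-deficient replicates 1 to 3. *Cdkn3* was below that limit as well, with 0.815, 0.787 and 0.478 FPKM in control and 0.928, 0.843 and 1.29 in CITED2-deficient replicates 1 to 3.

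*Bmi1* (ENSMUSG00000026739, chromosome 2, 18677018 to 18686629, plus strand) was at 26.4, 28.7 and 28.5 FPKM in control replicates 1, 2 and 3 and at 32.9, 35.2 and 35.0 FPKM without CITED2. The lowest library of each group was replicate 1, and the groups did not overlap. Mean FPKM was 27.9 ± 1.30 (SD, n = 3) in controls against 34.4 ± 1.30 (SD, n = 3) without CITED2, with a log2 fold change of 0.29 (standard error 0.050, 95% confidence interval 0.18 to 0.41, limma adjusted p = 0.00107). *Bmi1* thus moved opposite to most genes of the PRC1 list, which includes paralogs of *Bmi1* and not only partners of BMI1. Of 19 other PRC1 genes tested, 14 fell, 2 rose and 3 did not pass, with a median log2 fold change of -0.35. Of all tested genes, 34.6% fell and 16.7% rose. *Cbx7*, a chromodomain subunit that reads trimethylated H3K27, fell by 1.30 on the log2 scale from 21.7 ± 1.53 to 8.19 ± 0.352 FPKM (limma adjusted p = 4.52e-07). Its paralogs *Cbx8* and *Cbx6* fell by 0.83 and 0.75. The rises were *Phc2*, a polyhomeotic subunit (0.34), and *Pcgf5*, a paralog of *Bmi1* (0.31). With median-ratio scaling 10 fell and 3 rose. In Polycomb repressive complex 2, which writes that mark, 5 of 10 fell, led by *Phf1* (-0.69), *Rbbp7* (-0.28) and *Suz12* (-0.21), and *Jarid2* rose (0.23). There the falls depended on the scaling, since 2 were left with median-ratio scaling.

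*Myc* (ENSMUSG00000022346, chromosome 15, 61985391 to 61990374, plus strand) was at 5.81, 5.80 and 5.39 FPKM in control replicates 1, 2 and 3 and at 5.90, 4.68 and 4.73 FPKM without CITED2. The highest and the lowest of the 6 values were both in the CITED2-deficient group. On average, controls had 5.67 ± 0.241 (SD, n = 3) FPKM and CITED2-deficient BMDMs 5.10 ± 0.692 (SD, n = 3), with a log2 fold change of -0.13 (standard error 0.10, 95% confidence interval -0.35 to 0.086, limma adjusted p = 0.278). The interval leaves room for a moderate fall and for a slight rise. Without CITED2-deficient replicate 1 the groups did not overlap, and the log2 fold change was -0.22 (limma adjusted p = 0.0729). Of the 12 tested genes in the MYC, MAX and MLX network, 3 rose and 3 fell, which became 6 and 3 with median-ratio scaling and 5 and 3 with quantile normalization. *Max*, the partner that MYC and its antagonists share, rose from 113 ± 2.76 to 152 ± 8.89 FPKM (0.42, limma adjusted p = 5.59e-05). *Mycbp2*, a ubiquitin ligase named for binding MYC, rose (0.31), as did the antagonist *Mxd1* (0.24), while the antagonists *Mxd4* (-0.52), *Mxi1* (-0.36) and *Mnt* (-0.28) fell. Of 20 MYC targets in ribosome and nucleotide synthesis, 14 did not pass. The rest were split between rises of *Odc1* (0.24), *Ldha* (0.13) and *Eif4e* (0.12) and falls of *Cad* (-0.23), *Ncl* (-0.17) and *Npm1* (-0.15). That split turned with the scaling, since median-ratio scaling gave 8 rises and 0 falls by limma.

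The other lists of the G1/S machinery were set beside the 34.6% of all tested genes that fell and the 16.7% that rose. None of the 8 tested G1/S cyclins and kinases rose, and *Ccnh* (-0.37) and *Cdk2* (-0.35), parts of the CDK-activating kinase and of the cyclin E kinase, fell with the phosphatase gene *Cdc25a* (-0.24), whose call was lost with median-ratio scaling (limma adjusted p = 0.103). Among 19 genes of the RB family, E2F and DREAM, 9 fell, led by *E2f5* (-0.45), *Tfdp2* (-0.43) and *E2f1* (-0.39), and *Rbl1*, which encodes the RB relative p107, rose (0.36). With median-ratio scaling 6 fell and 2 rose. Of 14 genes of SCF-SKP2 and D cyclin turnover, which mark p27 and the D cyclins for degradation, 5 fell and 0 rose by limma, led by *Fbxo31* (-0.31), *Skp1a* (-0.19) and *Ddb1* (-0.18). Those falls were small enough to depend on the scaling, with 1 fall and 2 rises under median ratios. Genes of DNA replication were mixed, with 3 rises led by *Cdt1*, the licensing factor (0.61, 30.6 ± 1.35 to 47.3 ± 2.10 FPKM), *Mcm6* (0.26) and *Pcna* (0.24), and 3 falls, *Mcm3* (-0.47), *Mcm2* (-0.27) and *Mcm7* (-0.21), among 17 tested. With median-ratio scaling the calls of *Mcm2* and *Mcm7* were lost. Among 15 mitosis genes 11 did not pass, *Tpx2* rose (0.28), and *Cenpa* (-1.15), *Cdk1* (-0.37) and *Top2a* (-0.30) fell. The call of *Cdk1* was lost with median-ratio scaling (-0.28, limma adjusted p = 0.0632). *Cenpa*, the centromeric histone, dropped from 46.2 ± 3.63 to 20.2 ± 1.81 FPKM.

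Lists around p53, ERK signaling and the FOXO factors were set beside the same shares, 34.6% of all tested genes lower and 16.7% higher. Of 16 tested genes of p53 and its targets apart from *Cdkn1a*, 7 rose, 1 fell and 8 did not pass. *Plk2*, a stress-induced kinase, rose from 124 ± 2.94 to 271 ± 14.1 FPKM (1.12, limma adjusted p = 5.03e-08), and *Phlda3* (0.92) and the p53 ligase gene *Mdm2* (0.52) rose as well. *Sesn1*, also a p53 target, fell by 1.24 on the log2 scale from 114 ± 6.01 to 47.5 ± 1.72 FPKM (limma adjusted p = 5.38e-08). Among 13 genes of ERK feedback and mitogen response, 5 rose and 5 fell. *Csf1*, which encodes M-CSF, rose from 15.6 ± 1.29 to 39.5 ± 4.91 FPKM (1.28, limma adjusted p = 3.92e-06), with *Fosl1* (0.62) and *Egr2* (0.56). The largest falls were those of *Etv5* (-0.97), *Dusp6* (-0.56) and *Spred2* (-0.47). The FOXO factors, which drive transcription of *Cdkn1b*, and other KIP regulators gave 5 falls among 10 tested genes. *Foxo3* (-0.39), *Foxo4* (-0.26) and *Akt2* (-0.20) fell most, and *Bcl6*, which encodes a repressor, rose (0.15). With median-ratio scaling 1 of those 5 falls was left.

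**Figure D5:**
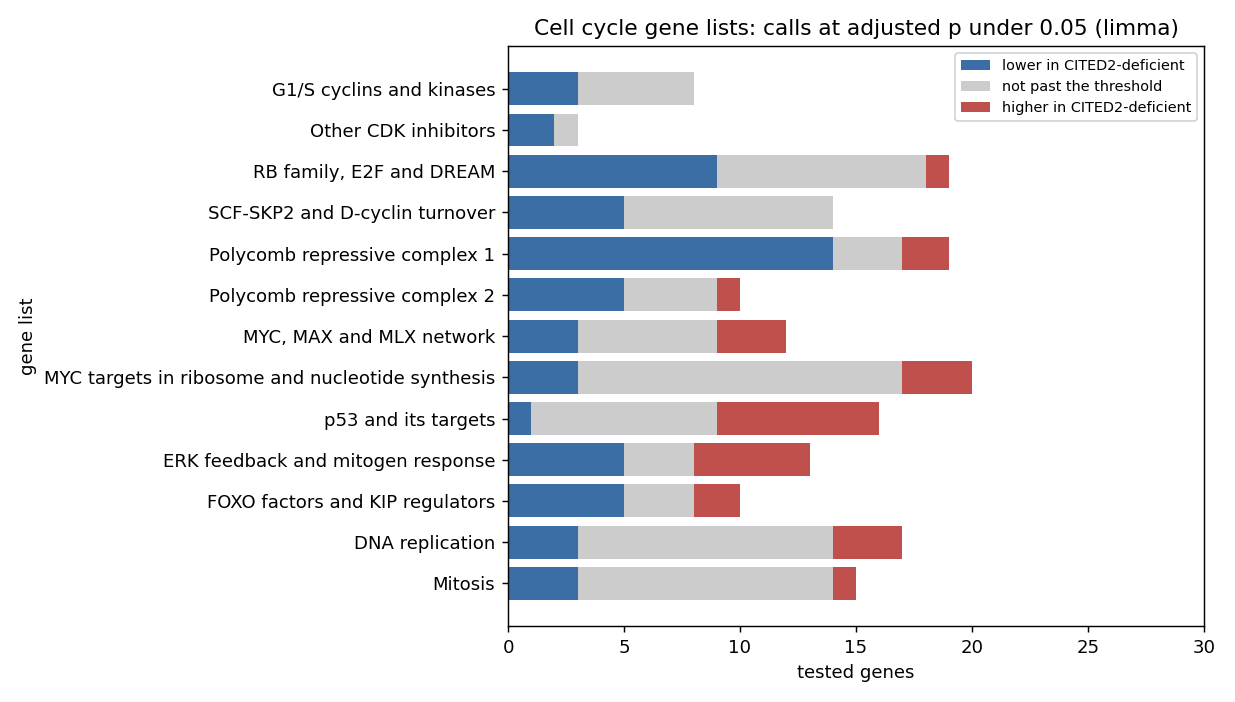
Number of tested genes that rose, did not pass or fell at a limma adjusted p of 0.05 in each of the 13 pathway lists around the 10 genes. PRC1 has the most falls, 14 of 19, and the p53 list the most rises, 7 of 16. Of all tested genes, 34.6% fell and 16.7% rose.

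The levels of the 10 genes can be ordered per length within each group. In controls the mean FPKM ran from *Cdk4* at 87.7 and *Cdkn1a* at 39.9 through *Bmi1* at 27.9, *Ccnd3* at 26.6, *Cdk6* at 24.0, *Cdkn1b* at 23.7, *Ccnd1* at 17.8 and *Cdkn2c* at 11.5 to *Myc* at 5.67 and *Ccnd2* at 2.79. The neighbors *Bmi1* and *Ccnd3* overlapped in their libraries, as did *Cdk6* and *Cdkn1b*. In CITED2-deficient BMDMs *Cdkn1a* came first at 86.4, followed by *Cdk4* at 73.5, *Cdk6* at 42.3, *Bmi1* at 34.4, *Ccnd1* at 23.9, *Ccnd3* at 20.1, *Cdkn1b* at 15.8, *Ccnd2* at 10.9, *Cdkn2c* at 7.12 and *Myc* at 5.10. No neighbors overlapped in that group. The exchange of *Cdk4* and *Cdkn1a* at the top was also seen with the longest transcript lengths, at 45.8 and 27.0 in controls and 38.4 and 58.5 without CITED2. Lower places did depend on the length, since *Ccnd2* was 8th of 10 without CITED2 by mean length and 10th by the longest transcript, at 2.82.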

How the data were processed

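Total RNA of resting BMDMs was sequenced in 6 libraries. The authors depleted ribosomal RNA, prepared stranded libraries, aligned to mm10 by STAR and deposited FPKM per gene and library, computed by Cuffdiff on a GENCODE annotation (22248 genes). The sources used here do not give versions, the release or the strand setting. Replicates were not pooled. FPKM are relative to library size, so changes in abundant genes can shift all others.

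Fragment numbers were recovered from the FPKM and mean transcript lengths of GENCODE vM21. For 21374 of 22239 matched genes (96.1%) they came within 0.02 of a whole number in every library. Pairs of replicates exceeded sampling noise (chi-square per gene 2.26 to 2.92 among control and 3.79 to 5.86 among CITED2-deficient libraries), so no library was counted as a duplicate.

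Groups came from the sample titles. The 11687 genes whose mean reached 1 FPKM were tested two-sided by limma (3.58.1, R 4.3.3) as log2(FPKM + 1), trend on, with p-values adjusted by the Benjamini-Hochberg method over all of them. A pseudocount understates changes of low genes. Cuffdiff needs alignments and was not run. An exact permutation test of 3 against 3 libraries cannot go below 0.1. The steps were tested on simulated data. The p-values measure the spread between these libraries. The sources used here do not say whether the 3 libraries of a genotype came from separate mice, and the spread between libraries cannot show it.

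The 10 genes and the lists of pathways and markers were chosen with earlier results of these data known. Marker genes were named for their values, and a few pathway genes after their values were seen, as said there. Other named genes are up to 3 rises and 3 falls past the threshold per pathway list, the 2 most similar genes for members with an absolute change of at least 0.5, and genes overlapping a member. A gene under this rule is not reported here. Alternatives were other pseudocounts, filters and scalings, no trend, a replicate block, each library left out and a fold of at least 2. Limma-voom on recovered fragments, thinning to equal depth and the longest transcript lengths were chosen later, after seeing the data. Promoter sequences are from RefSeq, GRCm38.p6.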

Additional observations from a re-analysis of the deposited data

How the results depend on the processing

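The directions of the 9 called members held under every alternative run, and, apart from an added fold threshold, each call held except that of *Cdk4*, which was lost with median-ratio scaling (log2 fold change -0.15, limma adjusted p = 0.0871; -0.29 to -0.23 over the other settings that keep all libraries). *Myc* was called under none. An added fold of at least 2 left 2 members and 615 genes (435 higher, 180 lower). Longest transcript lengths moved the D cyclin shares in control and CITED2-deficient BMDMs to 51.7% and 58.8% for *Ccnd1*, 3.95% and 12.9% for *Ccnd2* and 44.4% and 28.3% for *Ccnd3*. Rises were 32.5% of all calls with the deposited scaling, 42.0% with quantile normalization and 52.1% with median ratios. Leaving out each library in turn gave 1.51 to 1.78 for *Ccnd2* and -0.30 to -0.19 for *Cdk4*. Without CITED2-deficient replicate 1 the limma adjusted p of 5 other named genes rose above 0.05: *Cdkn2d* (0.0803), *Eif4e* (0.0604), *Cad* (0.0654), *Bcl6* (0.0607) and *Tpx2* (0.127).

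Same-numbered libraries did not deviate together over all tested genes (correlations 0.01, 0.01 and 0.04), which does not show whether they share anything beyond a number. A replicate block gave 5708 calls and the same count of 9 members. In this balanced design a block cannot change a log2 fold change, only its standard error, which for *Ccnd2* went from 0.148 to 0.0788. Depth limits the low genes above all, *Ccnd2* in controls first.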
